A study of Mus musculus with 2 samples.

Results

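Malat1, Neat1, Lincpint, Kcnq1ot1, Pvt1 and Snhg11 are 6 long RNAs that are grouped here as nuclear long noncoding RNAs. Their levels were followed through single pancreatic endocrine cells with and without the transcription factor Isl1. The 6 RNAs were picked by gene symbol from the 46984 features of the count tables, with their levels by library and cell group already known. Those levels are therefore a description and no test is attached to them. All 6 symbols were found. The samples were pancreatic islet cells of mice aged 1 month, taken apart in the presence of actinomycin D, a transcription blocker, sorted for the red reporter tdTomato and captured with poly(dT) primers by the 10x 3′ method. The control library came from animals of genotype Neurod1 Cre/+; Isl1f/+ and the Isl1CKO library from animals of genotype Neurod1 Cre/+; Isl1f/f, with 3 animals pooled in each. All animals therefore carried a Neurod1-driven Cre, which acts in cells of the endocrine lineage, and the controls kept 1 floxed Isl1 allele. Each genotype is 1 library, so differences between genotypes have no replicate check and carry no p-value. The ranges in parentheses are 95% intervals for counting error alone, and animals within a pool cannot be told apart except by sex.

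Nuclear long noncoding RNAs act where they are made or at nuclear bodies. Malat1 is an abundant RNA of nuclear speckles, the stores of splicing factors, and Neat1 is the scaffold of paraspeckles, bodies that hold RNA-binding proteins and grow under stress. Lincpint is a transcript induced by the tumour suppressor p53, Kcnq1ot1 is the imprinted antisense RNA that silences its neighbours on the paternal chromosome, Pvt1 lies beside the proto-oncogene Myc, and Snhg11 is a host gene of small nucleolar RNA.

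Poly(dT) primers bind runs of A, and the 6 RNAs differ in where such runs lie, so the parts of the transcripts that bear on their capture are shown first. They were read from the GENCODE vM21 transcripts of GRCm38. Malat1 (ENSMUSG00000092341.2) lies on the minus strand of chromosome 19, from 5795690 to 5802672, and Neat1 (ENSMUSG00000092274.2) lies beside it, from 5824708 to 5845478. Both are annotated as lincRNA, and the mature ends of Malat1 and of the long Neat1 form are known to lack a poly(A) tail and to fold into a triple helix instead. The A-rich tract of Malat1 (chr19:5795968-5796079, minus strand, in its single exon) and the end of the 20771-base Neat1 transcript (chr19:5824708-5824807, minus strand) share several stretches. The longest, of 16 bases, is in capitals and is rich in T, with no run of A. The 3004-base Neat1 transcript ends elsewhere (chr19:5842307-5842406, minus strand, last exon), with the polyadenylation signal AATAAA in capitals.
Malat1 A-rich tract: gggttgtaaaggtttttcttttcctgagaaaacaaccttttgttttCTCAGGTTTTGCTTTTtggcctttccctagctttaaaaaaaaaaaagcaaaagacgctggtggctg
Neat1 long transcript end: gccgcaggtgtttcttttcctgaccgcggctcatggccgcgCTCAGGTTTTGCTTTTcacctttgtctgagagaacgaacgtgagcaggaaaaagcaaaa
Neat1 short transcript end: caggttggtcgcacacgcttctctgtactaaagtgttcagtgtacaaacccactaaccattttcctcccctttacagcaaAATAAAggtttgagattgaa
The Malat1 tract holds a run of 12 A that ends 298 bases before the annotated end of the transcript. AATAAA was found in the last 40 bases of 25.8% of 141767 annotated transcripts, on the transcript strand, so its presence at 1 end is common.

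The longest run of A in any annotated transcript of the 6 genes belonged to Kcnq1ot1. Kcnq1ot1 (ENSMUSG00000101609.1, minus strand of chromosome 7, 143203458 to 143296549) is a single exon of 93092 bases inside the Kcnq1 gene. Its run of 41 A, in capitals, begins at base 69565, and the whole stretch shown lies at chr7:143226915-143227015, minus strand. Lincpint (ENSMUSG00000044471.11, minus strand of chromosome 6, 31082565 to 31220488, named Lncpint in the annotation) had 16 annotated transcripts, of which 1 ended within 40 bases of AATAAA. That end (chr6:31086196-31086295, minus strand, last exon) is shown with the signal in capitals.
Kcnq1ot1 longest A run: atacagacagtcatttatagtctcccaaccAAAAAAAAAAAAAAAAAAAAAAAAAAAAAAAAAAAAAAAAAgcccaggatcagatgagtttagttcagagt
Lincpint transcript end: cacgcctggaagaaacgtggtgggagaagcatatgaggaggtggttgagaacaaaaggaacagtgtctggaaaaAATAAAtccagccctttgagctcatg
Pvt1 (ENSMUSG00000097039.8) spans chromosome 15 from 62037986 to 62378096 and Snhg11 (ENSMUSG00000044349.15) chromosome 2 from 158375638 to 158386145, both on the plus strand. The annotation types Snhg11 as protein coding and Kcnq1ot1 as antisense. Kcnq1ot1 overlaps Kcnq1 on the other strand, and whether the counting used strand is not given in the sources used here, so UMIs of the pair may not be fully separated.

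In all, 48685758 UMIs were counted in control and 86086781 in Isl1CKO, a UMI being the tag of a single captured molecule. They came down to 4212 control and 8074 Isl1CKO endocrine cells that passed the filters, whose medians were 9024 and 8169.5 UMIs and 0.631% and 1.52% mitochondrial (mt-) UMIs, and 8 barcodes with at least 1000 UMIs occurred in both libraries. All 12 endocrine markers were detected in both libraries. UMIs of 13 of 13 acinar markers summed to 246 CPM in control and 239 in Isl1CKO endocrine cells, and those of macrophage markers to 202 (10 of 10) and 83.8 (9 of 10). Ductal markers, which were not used to set cells aside as non-endocrine, summed to 861 CPM in control and 612 in Isl1CKO (10 of 10 in both). Isl1 itself was counted at 379 and 304 CPM (log2 ratio -0.32); the labels do not say which exons are floxed, and a 3′ tag outside them checks nothing. By label only the Isl1CKO pool mixed females with males, the controls being males, yet cells with UMIs of Xist, the X-inactivation RNA, occurred in both libraries. Cells with Xist and no Y-linked UMIs are called female here (972 control and 5284 Isl1CKO), and cells with Y-linked and no Xist UMIs male (1735 and 1670).

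Across all endocrine cells Neat1 and Lincpint were several-fold higher in Isl1CKO, Malat1 was nearly level, and Kcnq1ot1 and Snhg11 were lower by less than 2-fold. Levels are in CPM, the UMIs of a gene per 1000000 UMIs of the summed cells, scaled by TMM, a factor that sets most genes level between sums, and log2 ratios are Isl1CKO over control. To be called, a gene had to reach 5 CPM in at least 1 sum and differ by 2-fold or more, with equality outside its interval. Of the 6 RNAs 5 passed that filter, and 2 of these were called higher and none lower, against 6.55% of 10424 genes called higher and 6.26% called lower. Those calls were 683 genes higher and 653 lower, and they depended on the scaling: unscaled CPM added 0.53 to every log2 ratio and gave 2270 and 313, and leaving hormone UMIs out of the totals moved each by -0.21 and gave 476 and 991. A ratio between 0 and 0.21 or between -0.53 and 0 therefore changes sign with the scaling. The 2 libraries also differ in their mix of cell groups and sexes (35.9% of the control and 76.0% of the Isl1CKO cells of called sex were female), and values by group and by sex follow.

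In control endocrine cells Neat1 was counted at 13.2 CPM (12.0 to 14.4), and in those of Isl1CKO at 51.5 CPM (50.01 to 52.99), which gives a log2 ratio of 1.97 (1.83 to 2.11). The Lincpint levels were 7.48 CPM (6.61 to 8.43) and 33.7 CPM (32.5 to 34.9), for a log2 ratio of 2.17 (1.99 to 2.36). In both cases the intervals of the 2 libraries lay far apart. Malat1 was by far the most abundant of the 6, with 1.87% of all control and 2.95% of all Isl1CKO UMIs in endocrine cells. On the scaled axis it stood at 23188 and 25366 CPM, a log2 ratio of 0.13, and its direction turned with hormone UMIs left out of the totals, at -0.08, and among cells of 5000 to 15000 UMIs, at -0.02. Kcnq1ot1 stood at 212 CPM (207 to 216) and 139.9 CPM (137 to 142) with a log2 ratio of -0.60. Snhg11 stood at 16.9 CPM (15.6 to 18.3) and 8.84 CPM (8.24 to 9.48), with a log2 ratio of -0.93, and passed the 2-fold limit under 5 of 16 alternatives. Pvt1 had 43 UMIs in control and 72 in Isl1CKO, or 1.19 and 0.806 CPM, too few to pass the filter.

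Detection in single cells mostly followed abundance, but in control Snhg11 was in fewer cells than the less abundant Neat1. Nearly all cells held a Malat1 UMI (98.7% in control, 99.6% in Isl1CKO). Neat1 had a UMI in 9.45% (8.58 to 10.4) and 27.7% (26.7 to 28.7), and after thinning each cell to 3000 UMIs in 3.07% and 14.1%. Thinning left out 174 control and 664 Isl1CKO cells. For Lincpint the shares were 6.007% and 24.3%, or 1.93% and 10.0% when thinned. Kcnq1ot1 was in 56.2% and 46.0% of cells and Snhg11 in 7.08% and 5.18%. Kcnq1ot1 and Snhg11 were thus in fewer Isl1CKO cells, and Neat1 and Lincpint in more.

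Free RNA, read from droplets of 10 to 100 UMIs, held all 6 RNAs, and no cell type served as a background because none is known to lack them. Without scaling, Malat1 was at 6403 CPM in control and 9009 in Isl1CKO free RNA, against 18705 and 29474 in endocrine cells. Neat1 was the exception in control: free RNA held 19.5 CPM (13.8 to 26.8, 38 UMIs), more than the 10.6 CPM of the cells. The share of Neat1 among UMIs was thus not higher in control cells than in control free RNA. How much of the Neat1 in control cells was free RNA was not tested. In Isl1CKO Neat1 was at 46.4 CPM in free RNA and 59.8 in all cells, but at 16.9 in the cells called male. Lincpint was 2.95-fold and Kcnq1ot1 3.29-fold higher in Isl1CKO cells than in free RNA, while Snhg11 was 1.24-fold higher. The part of free RNA in the differences between libraries was not tested.

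Cells were grouped by their own hormone and lineage factor UMIs. A hormone with at least 1% of a cell's UMIs put it among glucagon, somatostatin, pancreatic polypeptide or insulin cells or, with 2 or more such hormones, in a group of its own. Cells without one were split by UMIs of alpha factors (Irx1 and Irx2 among them), beta factors (Pdx1, Nkx6-1, Mafa), the delta factor Hhex, several of these, or none. The libraries fell into different groups: control cells were mostly glucagon cells (1580) or cells with 2 or more hormones (1683), and Isl1CKO cells mostly had beta factors only (2527), mixed factors (1736), alpha factors only (1440) or no factor (1170). Hormones made up 42.2% of control free RNA, so a control cell can reach a hormone limit through it. Groups with at least 50 cells were compared, which left 6 in control and 7 in Isl1CKO.

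Each RNA had its own order over the control groups. Malat1 was highest in pancreatic polypeptide cells at 45578 CPM (45353 to 45803), followed by beta factor only (32554), glucagon (22919), somatostatin (21669) and 2 or more hormones (18746), and lowest in insulin cells at 16961 CPM (16775 to 17149). No 2 neighbours in that order had overlapping intervals, which for so abundant an RNA are narrow and hold counting error alone. The control orders rest on TMM-scaled levels, and the groups differ in hormone content. Their median hormone share ran from 1.55% of UMIs in beta factor only cells to 66.6% in insulin cells. Orders under other scalings were not compared. Neat1 was also highest in pancreatic polypeptide cells, at 33.3 CPM (27.5 to 39.97), next to insulin cells at 27.2, and lowest in glucagon cells, at 5.71 CPM (4.46 to 7.21). The intervals of its 4 upper pairs of neighbours overlapped, and the glucagon group stood apart below.

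Kcnq1ot1 and Snhg11 had their control maximum in the group where Neat1 was lowest. Kcnq1ot1 reached 309.6 CPM (299.9 to 319.5) in glucagon cells and lay between 116 and 167 CPM in the other 5 groups. Snhg11 reached 30.1 CPM (27.1 to 33.3) there, against 12.2 in pancreatic polypeptide cells and 4.68 in beta factor only cells (3 UMIs). Within each order the other neighbours overlapped. Lincpint was low in all control groups, from 3.12 (2 UMIs) to 10.1 CPM in glucagon cells, and each pair of neighbours overlapped. Of the 43 control Pvt1 UMIs, 28 were in glucagon cells, at 2.25 CPM (1.497 to 3.26), and somatostatin and insulin cells held none.

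For Malat1, Lincpint, Kcnq1ot1 and Snhg11 the Isl1CKO order over cells of all depths was led by cells without any lineage factor. Malat1 reached 40526 CPM (40384 to 40668) in these cells and Lincpint 53.1 CPM (48.1 to 58.5). Kcnq1ot1 reached 191 CPM (181 to 201) and Snhg11 17.8 CPM (14.99 to 21.1). All 4 intervals lay above that of the next group. Neat1 was at 86.1 CPM (79.7 to 92.9) there and at 96.8 CPM (76.1 to 121) in the 82 Hhex only cells, whose intervals overlapped. The no factor cells also had the fewest UMIs, with a median of 4937, and the highest mt- share, with a median of 1.99%. Among cells of at least 3000 UMIs the highest group exceeded the lowest 1.23-fold for Malat1, against 2.02-fold among all cells, and 2.46-fold against 2.45-fold for Neat1. Kcnq1ot1 was then highest in insulin cells in place of no factor cells, at 1.51-fold over the lowest group. These levels pool the sexes, whose shares differ between groups (66.0% female in insulin and 97.3% in Hhex only cells of called sex). For Neat1 the order within a sex was another: insulin cells, lowest when pooled at 39.6 CPM, stood above glucagon cells with overlapping intervals among female cells (63.2 and 51.7 CPM) and above mixed factor cells without overlap among male cells (14.1 and 5.81 CPM). Below the leading groups most neighbours overlapped: for Lincpint all groups from beta factor only (37.0) down to alpha factor only (25.5 CPM) did so pair by pair. Pvt1 stayed between 0.421 and 1.37 CPM over the 7 groups, with all neighbours overlapping.

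**Figure D1:**
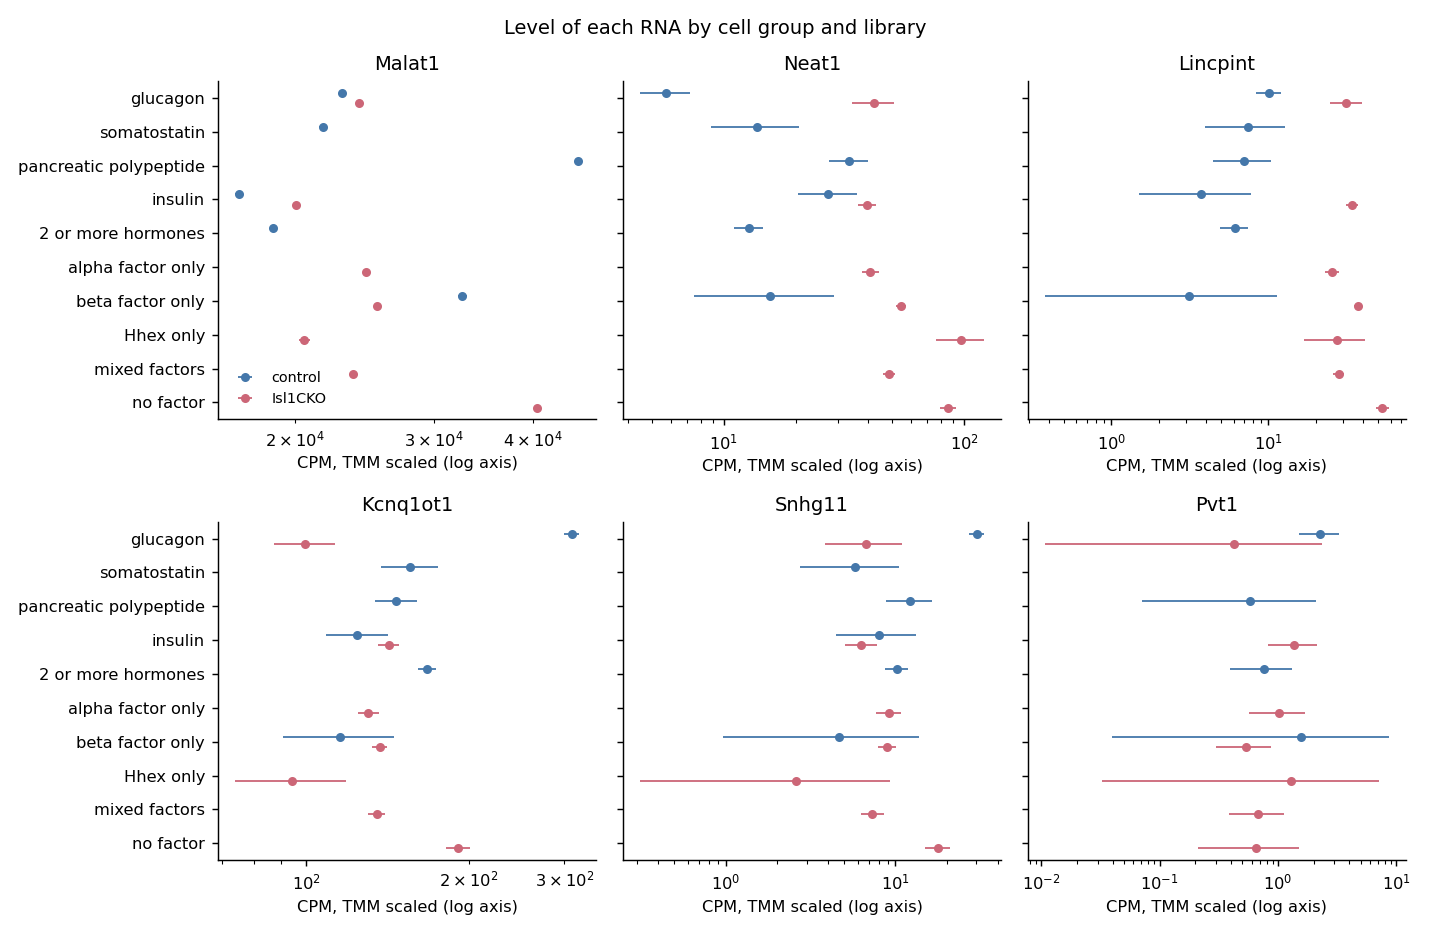
TMM-scaled CPM (log axes) of each RNA by cell group in the control (blue) and Isl1CKO (red) library, with 95% Poisson intervals for counting error; groups need 50 cells and at least 1 UMI of the gene. Lincpint lies between 25.5 and 53.1 CPM in the Isl1CKO groups and at or below 10.1 CPM in the control groups, while Kcnq1ot1 and Snhg11 have a single high control group, the glucagon cells.

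Insulin, glucagon and beta factor only cells reached 50 cells in both libraries, and ratios were computed for insulin and glucagon cells. In beta factor only cells (79 control, 2527 Isl1CKO) Kcnq1ot1 was at 116 CPM (90.7 to 145) and 137 CPM (132 to 141). Snhg11 was at 4.68 (3 UMIs) and 8.92 CPM there, also with overlapping intervals, and Malat1 at 32554 and 25412 CPM. Neat1 was at 15.6 (10 UMIs) and 54.5 CPM, and Lincpint at 3.12 (2 UMIs) and 37.0 CPM. In insulin cells (191 control, 933 Isl1CKO) 1 of the 5 tested RNAs, Lincpint, was called higher, against 9.8% of all genes, and none lower, against 7.04%. Lincpint rose from 3.74 CPM (1.502 to 7.70), from 7 UMIs, to 33.9 CPM (30.9 to 37.1), a log2 ratio of 2.99 (2.13 to 4.51). Neat1, with 27.2 CPM in control and 39.6 in Isl1CKO, had a log2 ratio of 0.51 (0.12 to 0.98) and was called in 2 alternatives, when cells were limited to 5000 to 15000 UMIs or without scaling. Within either sex the Neat1 value was not the higher one in Isl1CKO insulin cells, and the intervals overlapped. Neat1 was at 68.2 CPM (34.1 to 122) in 21 control female cells (11 UMIs) and 63.2 (57.5 to 69.4) in Isl1CKO female cells. The former interval spans the latter, so it tells neither a rise nor a fall. In male cells Neat1 was at 25.4 (16.9 to 36.8) and 14.1 (10.9 to 18.0). Female cells made up 17.4% of the control and 66.0% of the Isl1CKO insulin cells of called sex. Lincpint was at 18.6 (3 UMIs) and 53.9 CPM in female and at 2.73 (3 UMIs) and 13.9 in male cells. Kcnq1ot1 stood at 124 and 142 CPM, a log2 ratio of 0.19 that changes sign with hormone UMIs left out of the totals. Malat1 stood at 16961 and 20063 CPM and Snhg11 at 8.004 and 6.29, neither past 2-fold. The hormone content of the insulin cells differed, with medians of 66.6% hormone UMIs in control and 9.11% in Isl1CKO, and unscaled CPM added 1.08 to every ratio.

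In glucagon cells (1580 control, 172 Isl1CKO) 4 of the 5 tested RNAs were called. The 2 sets of cells were not alike in hormone content: the median hormone share was 36.8% of UMIs in control and 1.73% in Isl1CKO, the latter close to the limit of 1% and below the 2.50% of Isl1CKO free RNA. Neat1 and Lincpint were higher, against 8.92% of all genes, and Kcnq1ot1 and Snhg11 lower, against 11.2%. Neat1 rose from 5.71 CPM (4.46 to 7.21) to 42.1 CPM (34.3 to 51.2), a log2 ratio of 2.88 (2.43 to 3.34). Lincpint rose from 10.1 to 31.2 CPM, a log2 ratio of 1.64 (1.20 to 2.06). Kcnq1ot1 fell from 309.6 CPM (299.9 to 319.5) to 99.4 CPM (87.1 to 113), a log2 ratio of -1.63 (-1.83 to -1.45). Snhg11 fell from 30.1 to 6.74 CPM, a log2 ratio of -2.08 (-2.98 to -1.44), the latter level from 16 UMIs. Female cells made up 44.6% of the control and 80.1% of the Isl1CKO glucagon cells of called sex. By sex, Lincpint was at 8.01 and 42.5 CPM in female cells, but at 13.0 and 9.76 (5 UMIs) in male cells, where the intervals overlapped. Neat1 was at 3.74 and 51.7 CPM in female and at 6.71 and 21.5 (11 UMIs) in male cells. Malat1 stood at 22919 and 24089 CPM, a log2 ratio of 0.07 that turns negative with hormones left out of the totals. Glucagon cells were thus the group with the highest Kcnq1ot1 in control and, of the 7 Isl1CKO groups, one of the 2 lowest. The insulin and glucagon comparisons use other cells of the same 2 libraries, so they are not separate replicates, and the difference between them was not tested. Unscaled CPM added 0.27 to every glucagon cell ratio and leaving hormones out moved it by -0.39.

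Within Isl1CKO, Neat1 and Lincpint were higher in female than in male cells. In Isl1CKO Neat1 stood at 74.0 CPM (71.7 to 76.4) in female and 14.6 CPM (13.1 to 16.3) in male cells, a log2 ratio of 2.34 (2.18 to 2.51). Lincpint stood at 47.0 CPM (45.2 to 48.8) and 13.4 CPM (11.9 to 14.98), a log2 ratio of 1.81 (1.64 to 1.99). These 2 of the 5 tested RNAs were called higher in female cells, against 5.24% of all genes, and none lower, against 6.2%. Malat1 differed by -0.09, Kcnq1ot1 by -0.44 and Snhg11 by 0.36 on the log2 scale. In control, female and male cells had 10.6 and 15.4 CPM of Neat1, a log2 ratio of -0.54 (-0.92 to -0.19). The Lincpint levels were 7.59 and 8.86 CPM, with a ratio of -0.21 (-0.67 to 0.21). None of the 5 was called between the sexes in control, where 0.189% of genes were called higher and 0.417% lower.

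Read by genotype within each sex, Neat1 and Lincpint passed the 2-fold limit in female cells and not in male cells. Neat1 in female cells went from 10.6 to 74.0 CPM, a log2 ratio of 2.79 (2.51 to 3.13), while male cells had 15.4 and 14.6 CPM, a log2 ratio of -0.08 (-0.32 to 0.17). For Lincpint the ratio was 2.61 (2.27 to 3.01) in female and 0.59 (0.30 to 0.90) in male cells, where it moved from 8.86 to 13.4 CPM. Snhg11 was called lower in both, at -1.36 (-1.59 to -1.11) and -1.12 (-1.41 to -0.84); the male call was lost among cells with at least 1% Malat1, at -0.97, and both were lost without scaling, at -0.92 and -0.59. Without scaling the male Lincpint ratio was 1.13, past 2-fold. Kcnq1ot1 had ratios of -0.82 and -0.41 and Malat1 of 0.18 and 0.10. Unscaled CPM added 0.44 to each female and 0.54 to each male ratio, which turns the male Neat1 and Kcnq1ot1 ratios positive, and leaving hormones out moved them by -0.24 and -0.19, which turns both Malat1 ratios negative. Among female cells 2 of 5 RNAs were called higher and 1 lower, against 10.1% and 9.78% of genes, and among male cells none higher and 1 lower, against 4.53% and 4.67%. The difference between the sexes' ratios was not tested, and these comparisons share their cells with those above.

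The gap between the sexes held in each Isl1CKO cell group that could be split. In all 6 groups with at least 20 cells of each sex, the Neat1 interval of female cells lay above that of male cells, and so did the Lincpint interval. Neat1 was at 63.1 and 6.25 CPM in female and male cells with alpha factors only, and at 71.1 and 5.81 CPM in those with mixed factors. In insulin cells it was at 63.2 and 14.1 CPM, and in beta factor only cells at 70.7 and 25.7. Lincpint ranged from 37.0 to 63.7 CPM over the female and from 9.03 to 22.0 CPM over the male groups. Kcnq1ot1 had the higher value in male cells of all 6 groups, with intervals apart in all but the glucagon cells, such as 180.4 against 115 CPM with mixed factors. Female Isl1CKO cells had medians of 7870 UMIs, 1.41% mt- and 16.4% ribosomal protein UMIs, and male cells of 10935, 1.77% and 9.82%. Acinar markers summed to 297 CPM in female and 133 in male cells, and their part in the result was not tested. Cells of the 2 sexes come from different animals, and how many animals of each were pooled is not given, so sex and animal cannot be told apart. The calls of sex read free RNA too, and its part was not tested.

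**Figure D2:**
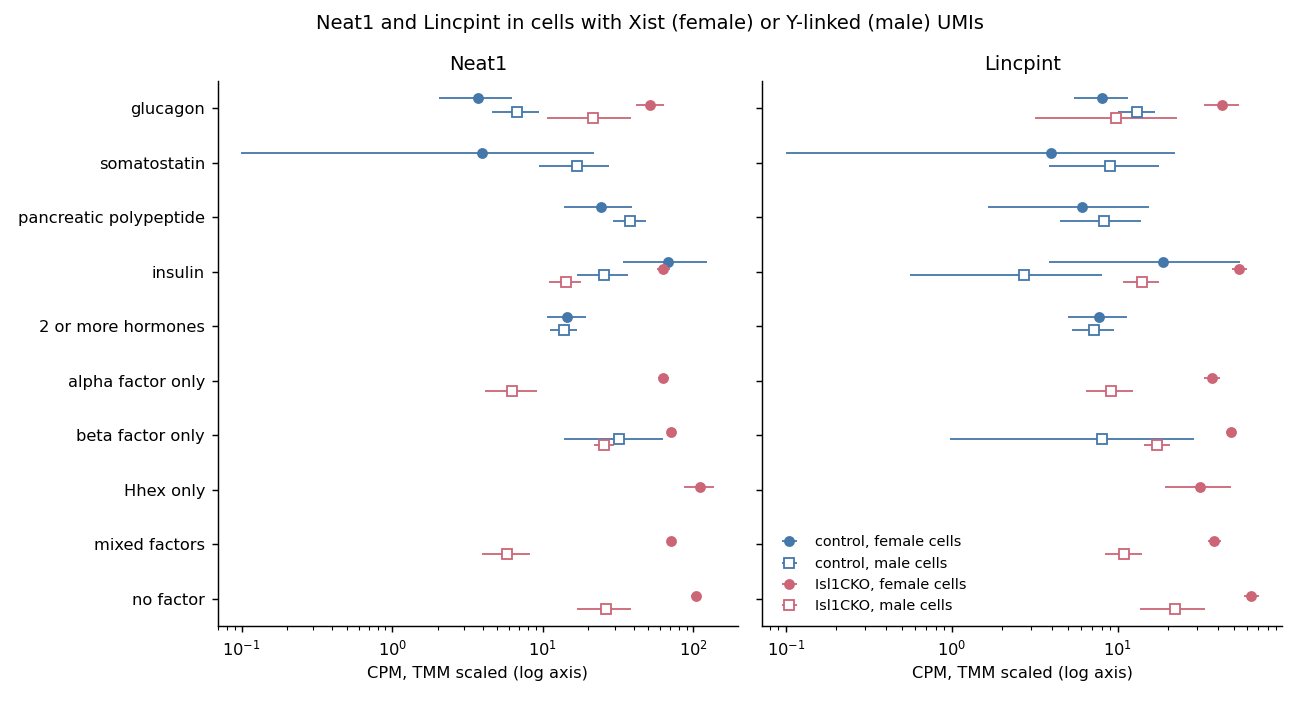
TMM-scaled CPM (log axes) of Neat1 and Lincpint by cell group in female (filled circles) and male (open squares) cells of the control (blue) and Isl1CKO (red) library, with 95% Poisson intervals for counting error; at least 20 cells and 1 UMI per point. Red circles lie right of red squares in each group that has both, while the intervals of blue circles and squares overlap in each group that has both.

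Malat1 varied more between cells of 1 library than between libraries or groups. In control cells its share of UMIs had a 5th percentile of 0.0279%, a median of 1.44% and a 95th percentile of 6.31%. In Isl1CKO cells these were 0.0676%, 1.68% and 13.6%. The shares formed a broad low peak and a sharper high one in both libraries. Among cells of at least 3000 UMIs, 1029 of 4038 control cells (25.5%, 24.1 to 26.9) had under 0.25% Malat1, 1383 had 0.25% to 2%, and 1584 (39.2%) had 2% to 8%. In Isl1CKO 2011 of 7410 (27.1%, 26.1 to 28.2), 2105 and 2775 (37.4%) fell in these ranges. The limits of the ranges were chosen after seeing the data, and many cells lie near them. Cells under 0.25% made up between 19.0% and 39.3% of each control group and between 20% and 38.4% of each Isl1CKO group, so no hormone or factor group was free of them. Malat1 in free RNA, given above, exceeded 0.25% of UMIs in both libraries.

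**Figure D3:**
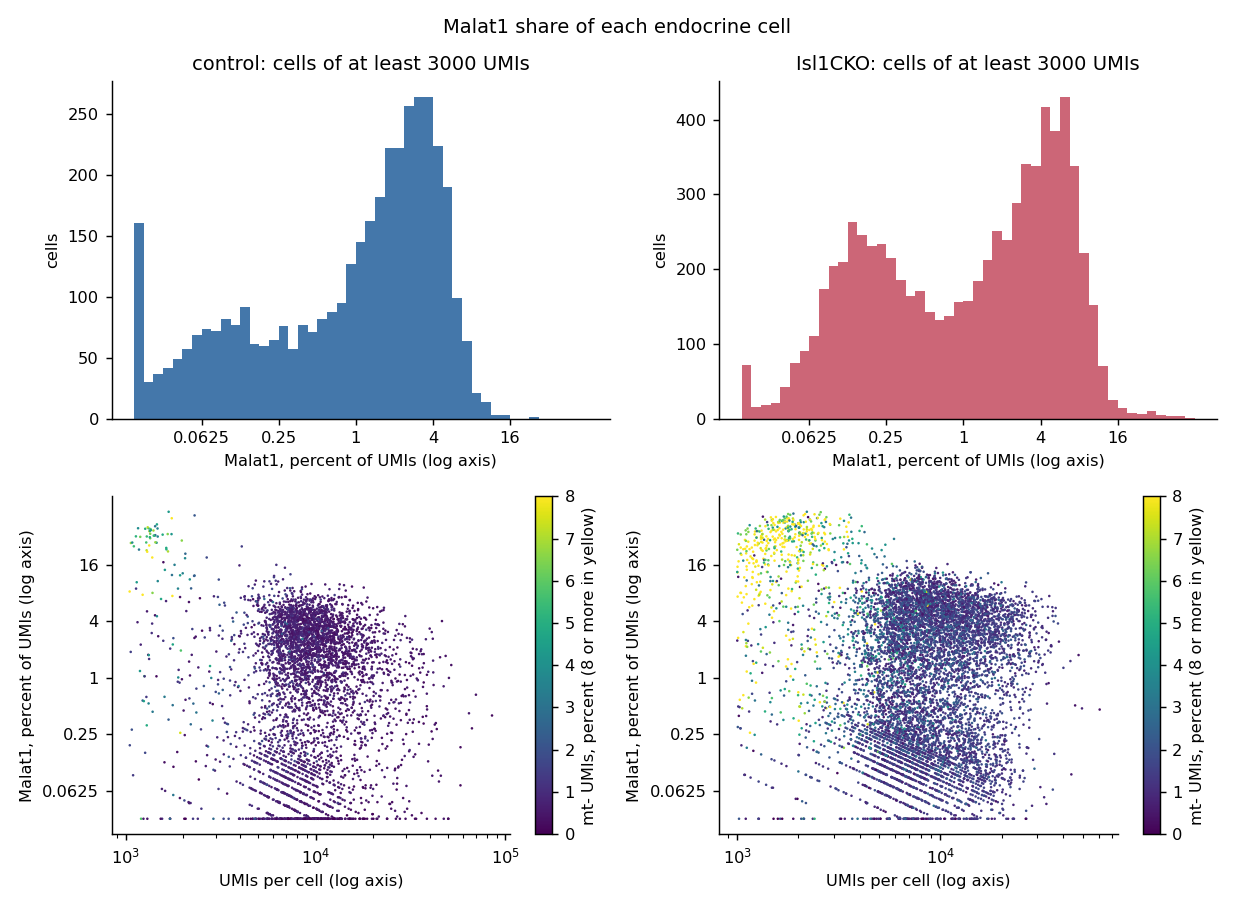
Top, number of endocrine cells of at least 3000 UMIs by Malat1 share of UMIs (log axis) in control (blue) and Isl1CKO (red); bottom, Malat1 share against UMIs per cell (both log axes), coloured by mt- share, with shares below the scale drawn at its lower end. Both histograms show a low and a high peak on either side of about 1%, and the cells of 16% or more lie at few UMIs and high mt- shares.

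The other nuclear RNAs rose with Malat1 from cell to cell. Cells of at least 3000 UMIs with 2% to 8% Malat1 were summed and set against those under 0.25%, in each library alone and with TMM on the 2 sums, an analysis added after seeing the data. Besides Malat1, which defined the ranges, Neat1, Lincpint, Kcnq1ot1 and Snhg11 were called higher in both libraries, against 4.68% of genes in control and 4.24% in Isl1CKO. None was lower, against 0.993% and 0.163%. Kcnq1ot1 stood at 19.3 CPM in control cells with little Malat1 and at 273 in those with much, a log2 ratio of 3.82 (3.61 to 4.04), and in Isl1CKO at 18.5 and 245, a log2 ratio of 3.72 (3.57 to 3.88). The intervals of the 2 libraries overlapped. Lincpint had ratios of 3.24 (2.43 to 4.54) in control, from 9 UMIs in the low cells, and 3.69 (3.40 to 4.04) in Isl1CKO. Snhg11 had 2.88 (2.33 to 3.62) and 1.90 (1.52 to 2.36). Neat1 had 1.28 (0.88 to 1.74) and 1.93 (1.78 to 2.09). Pvt1 stood at 0.827 and 1.01 CPM in control and 0.908 and 1.05 in Isl1CKO, under the filter, with intervals that include equality.

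By the same split most other nuclear long noncoding RNAs were higher and most snoRNA host transcripts were not called. Of a list of 21 other nuclear long noncoding RNAs, 10 of 13 tested were higher and 0 lower in control (median log2 ratio 1.44), and 10 of 14 were higher and 0 lower in Isl1CKO, with a median of 1.57. The median over all tested genes was -0.04 and -0.04. Meg3, an imprinted RNA held at its locus, rose by 2.49 in control and 2.45 in Isl1CKO on the log2 scale. Of 21 snoRNA host and cytoplasmic long noncoding RNAs, 1 of 13 and 1 of 15 were higher and none lower, with medians of -0.10 and -0.25. Gas5, a spliced snoRNA host whose RNA is exported and degraded in the cytoplasm, named here after its values were seen, had -0.04 and -0.25. Messages for speckle and splicing proteins lay between, with 7 and 6 of 30 higher, none lower, and medians of 0.53 and 0.44.

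In finer bins the levels climbed over several steps, with little change in depth up to 8% Malat1. From the 782 control cells with the least Malat1 to the 1023 with 2% to 4%, unscaled Kcnq1ot1 went from 9.85 to 295 CPM and Meg3 from 112 to 989. The median number of UMIs in these cells was 8670 and 9412, and the median mt- share 0.602% and 0.637%. In Isl1CKO the 1081 cells with the least Malat1 and the 1623 with 4% to 8% had 3.48 and 69.7 CPM of Lincpint and 17.6 and 102 CPM of Neat1, with medians of 8731 and 9327 UMIs. Their Gas5 stood at 796 and 773 CPM. Within this range the sexes stayed apart: at 4% to 8% Malat1, female Isl1CKO cells had 144 and male cells 17.9 CPM of Neat1, and 93.1 and 23.0 CPM of Lincpint. Xist is itself a nuclear RNA, and the share of cells whose sex was unclear was 49.2% in the control cells with the least Malat1 and 29.1% in those of 2% to 4%.

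**Figure D4:**
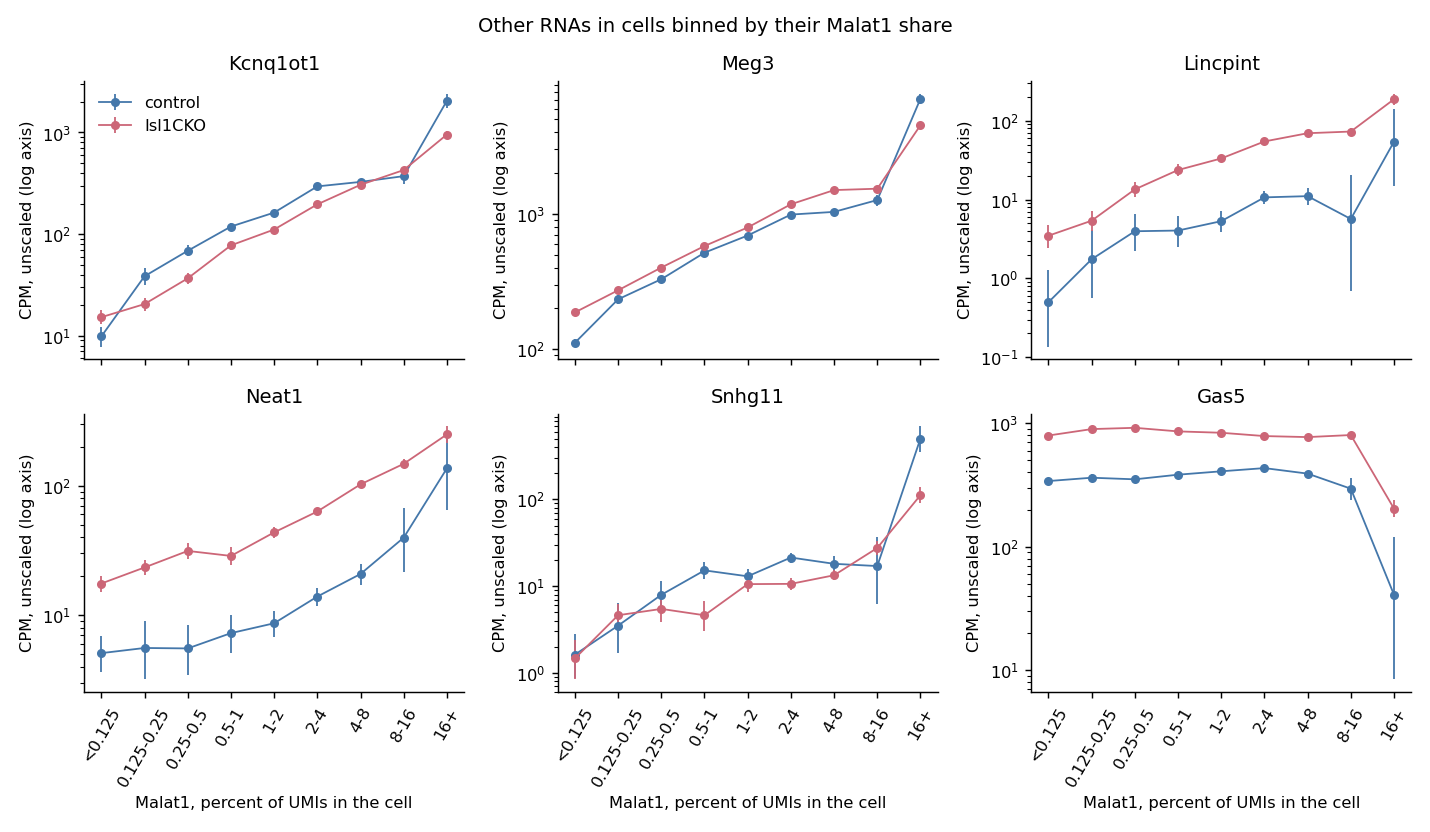
Unscaled CPM (log axes, 95% Poisson intervals for counting error) of Kcnq1ot1, Meg3, Lincpint, Neat1, Snhg11 and Gas5 in endocrine cells binned by the Malat1 share of their UMIs, in control (blue) and Isl1CKO (red). The first 5 are lowest in the leftmost bin and highest in the bin of 16% or more in both libraries, while Gas5 varies little up to 8% and drops in cells of 16% or more.

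Across single cells the pairing was closest between Malat1 and Kcnq1ot1. Spearman's rho of their shares of UMIs was 0.57 over 4212 control and 0.53 over 8074 Isl1CKO cells, which share library, depth and total. For Malat1 with Lincpint it was 0.14 and 0.34, and with Neat1 0.12 and 0.24, counts so sparse that weak values say little. Malat1 with the number of UMIs per cell gave -0.04 and -0.08, and with the mt- share 0.11 and 0.18. With the ribosomal protein share it gave -0.10 and -0.40.

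Cells with few UMIs carried a larger share of nuclear RNA. Cells of 1000 to 2000 UMIs (114 control, 396 Isl1CKO) had 6.73-fold and 7.16-fold more Malat1, without scaling, than cells of 8000 to 16000 UMIs. The fold was 5.29 and 4.46 for Kcnq1ot1, 5.09 and 3.22 for Neat1, 3.30 and 3.22 for Lincpint and 15.96 and 10.2 for Snhg11. All 5 thus had higher values in the shallow cells of both libraries, though these folds carry no interval. The control Lincpint value rests on few UMIs: all control endocrine cells held 270, and those of 2000 to 4000 UMIs held none. In cells of 1000 to 2000 UMIs the median mt- share was 3.67% and 6.70%, against 0.586% and 1.45% in cells of 8000 to 16000 UMIs. The ribosomal protein share was 3.86% and 3.43%, against 9.48% and 14.5%. From 4000 to 16000 UMIs, where most cells lie, Malat1 stood at 20789.8 and 20439 CPM in the 2 control bins and at 26507 and 27830.3 in Isl1CKO.

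The mt- share gave a similar picture. Control cells with 4% to 8% mt- UMIs (47 cells) had 23.0% and Isl1CKO cells (343) 13.0% of their UMIs from Malat1, against 1.92% and 3.14% at 0.5% to 1% mt-. Neat1 in these Isl1CKO cells was at 146 CPM, against 68.2 at 0.5% to 1%. Cells with 16% or more Malat1 numbered 48 in control (1.14%) and 362 in Isl1CKO (4.48%), whose median depth was 1402 and 1861 UMIs and median mt- share 5.09% and 6.96%. Of the Isl1CKO ones, 238 were no factor cells. Limiting both libraries to cells with 0.5% to 2% mt- UMIs gave log2 ratios of 2.05 for Neat1 and 2.03 for Lincpint between the libraries, and limiting them to 5000 to 15000 UMIs gave 2.36 and 2.06.

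**Figure D5:**
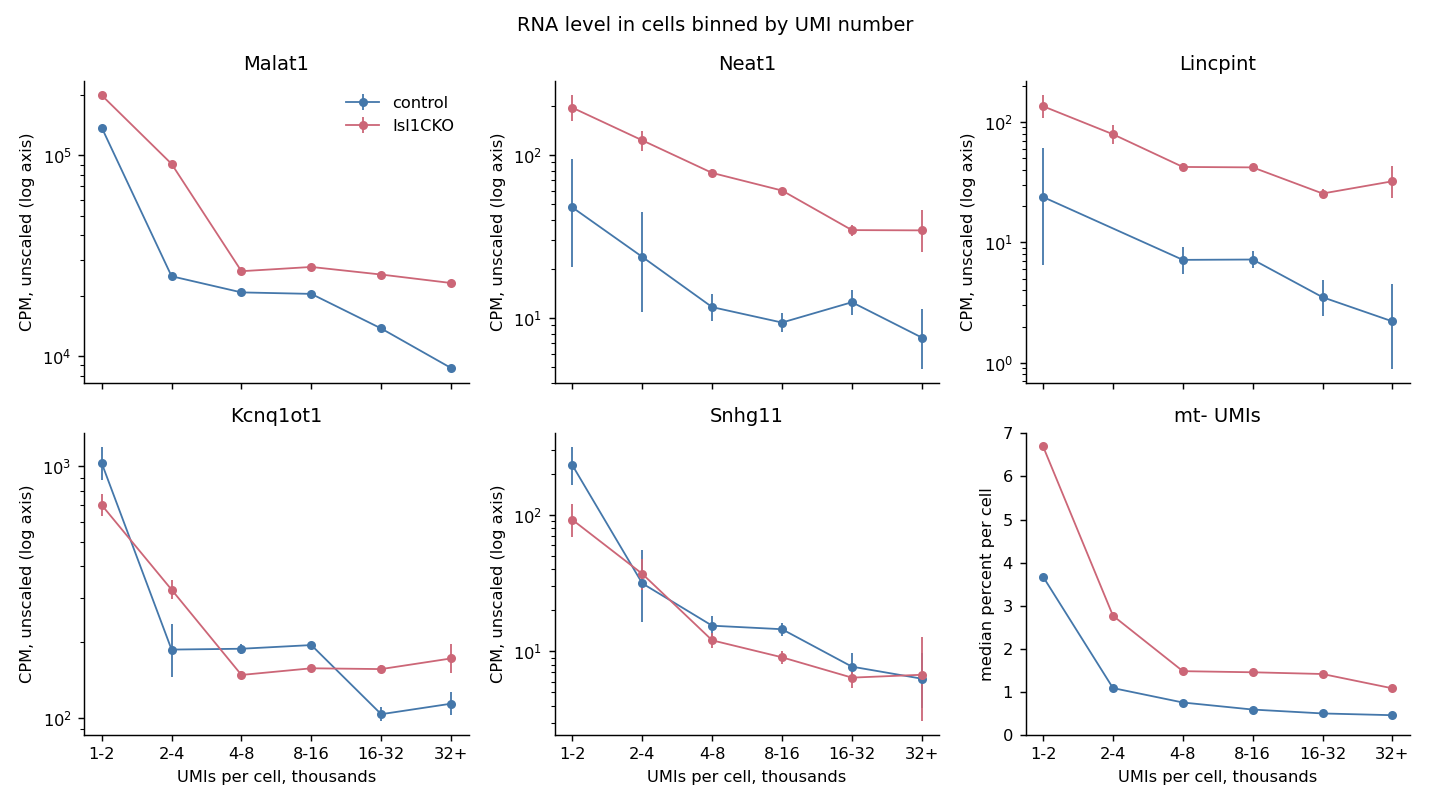
Unscaled CPM (log axes, 95% Poisson intervals for counting error) of 5 RNAs and the median mt- share (linear axis from 0) in endocrine cells binned by UMI number, in control (blue) and Isl1CKO (red); control Lincpint had no UMI at 2000 to 4000. All 5 RNAs and the mt- share are highest in cells of 1000 to 2000 UMIs, where Malat1 reaches 137583 and 199185 CPM.

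Counted against Malat1 in place of all UMIs, Neat1 was again higher and Kcnq1ot1 and Snhg11 lower in Isl1CKO over all endocrine cells. Per 1000 Malat1 UMIs there were 0.568 Neat1 UMIs in control and 2.03 in Isl1CKO cells. By sex there were 0.466 Neat1 UMIs in female and 0.606 (0.532 to 0.688) in male control cells. In Isl1CKO there were 2.89 in female and 0.536 (0.481 to 0.597) in male cells, so Neat1 was not higher in male Isl1CKO cells. Kcnq1ot1 had 9.13 in control and 5.52 in Isl1CKO, and Snhg11 0.728 and 0.349. Among cells with at least 1% Malat1 the log2 ratios of Neat1 and Lincpint between the libraries were 2.10 and 2.27.

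Genes tied to the 6 RNAs by function or position were read from lists chosen with earlier results known. Of 30 p53 targets, the pathway that induces Lincpint, 20 were tested between the libraries and 9 were higher and 0 lower, against 6.55% and 6.26% of all genes. Their median log2 ratio was 0.44, against 0.06 over all genes. The lists share the libraries and scaling of the 6 RNAs, and their medians move with the scaling as above. Cdkn1a, the cell cycle inhibitor p21, was at 214 CPM in Isl1CKO and 25.5 in control (3.07), and Ddit4, an inhibitor of mTOR signalling, at 154 CPM in Isl1CKO and 15.2 in control (3.34). Mdm2, the ubiquitin ligase that degrades p53, was at 39.5 CPM in Isl1CKO and 33.9 in control (0.22). The lowest ratios were those of Rrm2b, a ribonucleotide reductase subunit (-0.24), and Ei24 (0.02). By genotype in female cells 7 of 21 were higher and 1 lower, against 10.1% and 9.78% of all genes, and in male cells 8 of 22 and 0, against 4.53% and 4.67%. Between Isl1CKO female and male cells 3 of 22 were higher and 4 lower, against 5.24% and 6.2%.

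Among messages of the proteins that share nuclear bodies with Neat1 and Malat1, calls were near the background of 6.55% and 6.26% of all genes higher and lower, and nothing is read from their number. Of 24 paraspeckle protein genes, 1 was higher (Rbm3, a cold-induced RNA-binding protein, 1.83) and 1 lower (Hnrnph3, a splicing regulator, -1.04), with a median of 0.21. Next to them came Fig4 (0.99) and Taf15, an RNA-binding protein (-0.33). Sfpq and Nono, the core paraspeckle pair, were at 219 CPM in Isl1CKO and 142 in control (0.63) and at 35.9 CPM in Isl1CKO and 40.4 in control (-0.17). Between Isl1CKO female and male cells Sfpq had a log2 ratio of 1.08. Of 30 speckle and splicing protein genes, 1 was higher (Tra2b, a splicing regulator, 1.04) and none lower, with Srsf5 at 0.79, the helicase gene Ddx17 at -0.61, the splicing factor gene Srsf7 lowest at -0.88 and a median of 0.05.

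Counts for other long noncoding RNAs are set against the same 6.55% and 6.26% of all genes. Of 15 tested snoRNA host and cytoplasmic RNAs, 5 were higher and 0 lower in Isl1CKO, led by Snhg5 (2.41) and Snhg6 (1.99) and ending with Snhg20 (0.06) and Snhg12 (-0.18), with a median of 0.78. Snhg11, a host gene by name, was on the other side at -0.93. Between Isl1CKO female and male cells 9 of 15 hosts were higher and 0 lower, against 5.24% and 6.2%. By genotype in male cells 1 of 14 hosts was higher, with a median of 0.19, and 0 of 13 other nuclear RNAs, against 4.53%. Of 14 tested other nuclear RNAs, 2 were higher and 1 lower. These numbers are near the background, and their median was -0.08. The higher ones were Nespas, an imprinted antisense RNA (1.36), and Xist, at 389 CPM in Isl1CKO and 179 in control in pools of unequal sex makeup. The lowest were Gm26917 (-1.13) and Ftx, a neighbour of Xist (-0.999). Meg3 stood at 777 CPM in Isl1CKO and 789 in control (-0.02).

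Of 21 genes that neighbour the 6 loci, 10 were tested and 1 was called, higher, which is near the 6.55% and 6.26% of all genes and says nothing of the group. That gene was Kcnq1, a potassium channel gene in whose body Kcnq1ot1 is transcribed, at 7.65 CPM in Isl1CKO and 0.693 in control (3.41). Kcnq1ot1 itself had a ratio of -0.60. In insulin cells alone Kcnq1 was not called, at 5.86 CPM in Isl1CKO and 4.27 in control (8 UMIs). Its log2 ratio there was 0.30 (-0.59 to 1.72), and that of Kcnq1ot1 was 0.19. A link between the 2 genes was not tested. Cdkn1c, the growth inhibitor silenced by Kcnq1ot1 on the paternal chromosome, stood at 27.7 CPM in Isl1CKO and 25.5 in control (0.11). Counts do not tell the parental alleles apart. Mkln1, next to Lincpint, stood at 117 CPM in Isl1CKO and 77.8 in control (0.58), and Tssc4, of the Kcnq1 cluster, had the lowest ratio of the list at -0.65, before Nap1l4, a histone chaperone gene of the same cluster, at -0.39. Myc, next to Pvt1, was at 2.91 CPM in Isl1CKO and 3.46 in control, under the filter.

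The genes whose levels most resembled those of each RNA were found over the 14 library and cell group sums of at least 50 cells, the Isl1CKO non-endocrine cells included, by Pearson's r of log2(CPM + 1) among 7490 genes that reached 20 CPM. The sums share 2 libraries, so r is a description of these libraries. Neat1 was most like Mt2 (0.97), Mt1 (0.95), Clk4 (0.93), Rell1 (0.92) and Map3k8 (0.92), of which Mt1 and Mt2 are the metallothioneins that bind zinc. Lincpint was most like Sod1 (0.98), Ptbp2 (0.97), Bclaf1 (0.96), Tram2 (0.96) and 2410006H16Rik (0.96), where Sod1 is a superoxide dismutase. Kcnq1ot1 was most like Pwwp2a (0.88), C130089K02Rik (0.88), Sclt1 (0.86), Trmt1l (0.85) and Rbm5 (0.84). Snhg11 was most like Pwwp2a (0.93), C130089K02Rik (0.93), Syt11 (0.90), Snrnp70 (0.88) and Ttc39b (0.86), so that Pwwp2a and C130089K02Rik led both. Malat1 was most like Gm37376 (0.81), Gm20417 (0.80), Agfg2 (0.71), Nkx6-3 (0.70) and 4632427E13Rik (0.69), with lower r than the others. Pvt1, at a few UMIs per sum, was most like Dynlrb2 (0.82), Glud1 (0.82), Grpel2 (0.79), Ugt8a (0.79) and B930095G15Rik (0.79). Among the 6 themselves r was 0.88 between Kcnq1ot1 and Snhg11, 0.75 between Neat1 and Lincpint and -0.41 between Neat1 and Kcnq1ot1.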

How the data were processed

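The deposited files hold raw UMI counts per gene and barcode for the 2 libraries, made by the authors with STARsolo, STAR 2.7.3a and Seurat 4.3.0.1 on GRCm38.p6, per the submitters' processing notes, which give no role or order. They list every barcode, with no cell filter, and whether introns and strand were counted is not given in the sources used here.

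Barcodes with at least 1000 UMIs, 500 genes and at most 15% mt- UMIs were kept (4219 control, 8231 Isl1CKO), and the 7 and 157 without a dominant hormone but with at least 0.5% of UMIs from acinar, macrophage, lymphocyte, endothelial, stromal, Schwann or erythroid markers were set aside as non-endocrine. Doublets were scored with Scrublet (scanpy 1.11.5), whose automatic limit marked 249 control and 0 Isl1CKO cells, so all were kept and the top 5% left out as an alternative. UMIs were summed per library and cell group and scaled by TMM over all sums (edgeR 4.0.16, R 4.3.3). Ratios had 1 count added to each sum, with exact conditional Poisson intervals, and shares had exact Clopper-Pearson intervals (scipy 1.17.1). The count step was tested on simulated data.

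The 6 RNAs and all lists were chosen with earlier results of these data known. From each list the 2 highest and 2 lowest ratios over endocrine cells were named, and genes tied directly to one of the 6. Alternatives were other scalings (DESeq2 1.42.0 size factors among them), cell filters, depth and mt- windows and group limits. Ratios per Malat1 UMI, the limit of 1% Malat1 and the ranges of Malat1 share were added after seeing the data.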

Additional observations from a re-analysis of the deposited data

How the results depend on the processing

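The calls of Neat1 and Lincpint as higher held in all 16 alternatives over endocrine cells, over female cells and between Isl1CKO female and male cells, and all 4 glucagon cell calls held in 17. Over endocrine cells their log2 ratios ranged from 1.76 to 2.49 and from 1.96 to 2.69. The number of RNAs called lower over endocrine cells, 0 in the report, was 1 (Snhg11) with hormone UMIs left out, 1 per Malat1 UMI, 1 with at least 3000 UMIs, 1 with at most 5% mt- UMIs and 1 with 5000 to 15000 UMIs. In insulin cells 4 RNAs were called higher without scaling and 2 with 5000 to 15000 UMIs, against 1. In female cells 0 were lower without scaling and 2 with hormones left out, 2 without a minimum CPM and 2 per Malat1 UMI, against 1. In male cells 1 was higher without scaling, against 0, and 0 lower without scaling and 0 with at least 1% Malat1, against 1. Between Isl1CKO female and male cells 1 was lower without a minimum CPM, against 0. The cause of these changes was not tested.

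Calls over all genes depended most on the scaling and the low-value filter. Without scaling 2583 genes were called over endocrine cells (against 1336), 6258 over insulin cells (1744) and 1875 over male cells (952). Without a minimum CPM, which tests more genes, 4163 were called over endocrine cells, 4127 over female cells (2080), 2449 over male cells, 2986 between Isl1CKO female and male cells (1177) and 403 between control female and male cells (61), and the last number was 199 with thinned cells and 105 with at least 1% Malat1. Calls split into 1015 higher and 729 lower over insulin cells, but 6047 and 211 without scaling and 688 and 1117 with hormones left out. For glucagon cells the split was 921 and 1152, then 1458 and 767, and 518 and 2176. For female cells it was 1058 and 1022, then 2464 and 522, and 690 and 1485. For male cells it was 469 and 483, then 1631 and 244, and 332 and 653. Between control female and male cells it was 19 and 42, and 26 and 33 without scaling. DESeq2 size factors moved insulin cell ratios by -0.10.

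The highest over the lowest Isl1CKO group, 2.02-fold for Malat1, was 1.60-fold with at least 2 UMIs of a factor list, 1.94-fold with a hormone limit of 5% and 1.23-fold with at least 3000 UMIs. For Kcnq1ot1, 2.03-fold in the report, it was 1.56-fold with at least 2 factor UMIs and 1.51-fold with at least 3000 UMIs. In the last setting insulin cells were the highest group, in place of no factor cells. For Lincpint, 2.09-fold, it was 1.74-fold with at least 3000 UMIs. No paired analysis was possible because each group is 1 library and the labels share only 1 replicate number. Depth limits Pvt1, Snhg11 and control Lincpint most.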

Other observations

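The 157 Isl1CKO cells set aside as non-endocrine also carried the 6 RNAs. Their Neat1 stood at 93.4 CPM, their Lincpint at 41.9, their Kcnq1ot1 at 199 and their Malat1 at 28547, while Pvt1 had 1 UMI. The control library held 7 such cells, too few for a level.

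Snhg11 UMIs in both libraries and Neat1 UMIs in Isl1CKO were unevenly spread over single cells. A single cell held up to 32 control and 35 Isl1CKO UMIs of Kcnq1ot1 and up to 4 and 36 of Neat1. After thinning to 3000 UMIs the variance of Neat1 was 1.03 times its mean in control and 2.06 times in Isl1CKO. For Lincpint these ratios were 1.03 and 1.25, and for Snhg11 1.54 and 1.68. In control the 609 Snhg11 UMIs came from 298 cells, whereas the 270 Lincpint UMIs came from 253.

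The genes with the highest ratios between cells of 2% to 8% and under 0.25% Malat1 were mostly unnamed transcripts, and those given here were chosen after their values were seen. Of the 12 highest in each library, 5 were shared: Gm37376, Gm20417, 2900092N22Rik, Gm38055 and Gm43481. Gm37376 had 318 UMIs in control cells of 2% to 8% Malat1 and 2 in those under 0.25%, and 949 and 3 in Isl1CKO. For Gm20417 the numbers were 479 and 5, and 1431 and 13. Gm37376 and Gm20417 were also the genes most like Malat1 over the cell groups. The control list was led by Glycam1, with 2532 and 1 UMIs, which was not among the 12 highest in Isl1CKO.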
